A study of Arabidopsis thaliana with 30 samples.

Results

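Freshly harvested seed of *Arabidopsis thaliana* Col-0 (H) was compared with seed of the same batch after dry storage (0 h), gene by gene, over every gene with enough reads to test. This took 6 of the 30 libraries, 3 per time point, and 23222 of the 38217 features in the gene table passed the filter on low counts. All plants were wild type and grown to maturity in long days. H seed was frozen on collection, and 0 h seed was held dry and dark for 14 or 15 days, on which the descriptions differ. All seed came from a single batch of plants, so a p-value below measures the spread between 3 samples of that batch at each time point. Time of storage also cannot be told apart from anything else that differed between the 2 collections, such as RNA extraction or library preparation. The remaining 24 libraries covered imbibition in the cold and dark (S) and growth in light (SL). They entered the filter on low counts, the scaling and the estimate of spread, so they also affected which genes were tested and the fold changes. They further entered an offset for transcript length and the choice of a gene class, both described below, and a few levels given for reference.

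Mature seeds carry a large store of mRNA made while the embryo was still maturing on the mother plant, above all for storage proteins, oil body proteins and late embryogenesis abundant (LEA) proteins, which protect cells during drying. In the dry state the cells are close to metabolic rest, and the stored transcripts are the templates for the first proteins made when water returns. After-ripening is the period of dry storage during which seeds lose dormancy, a process tied to abscisic acid (ABA), which maintains dormancy, and to gibberellin, which promotes germination. A change in a library is a change in the share of reads, so a lower share of a transcript and a higher share of the others cannot be told apart, nor can fewer cells of a type and less RNA per cell.

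The libraries held 56100099 to 69809053 counted reads at H and 28020621 to 41462745 at 0 h. Reads of the top 10 genes made up 25.7% to 27.2% of an H library and 24.2% to 25.2% of a 0 h library. Levels are given as CPM, the counts scaled to a common library total. Across genes tested, the Spearman correlation was at least 0.990 between libraries of one time point and at most 0.985 between time points, and no library repeated another. Markers of mature seed were abundant at both time points (the summed level of 9 markers was 127482 to 130159 CPM at H and 97204 to 99058 CPM at 0 h). Markers of floral organ identity summed to 1.73 to 2.00 CPM at H and, without overlap, 2.68 to 2.82 CPM at 0 h, and markers of the silique to 0.673 to 1.07 CPM and 1.03 to 1.14 CPM.

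Both directions of change were seen over dry storage. At 0 h, 594 genes were higher (2.56% of those tested) and 1454 were lower (6.26%) than at H, 8.82% in either direction (edgeR quasi-likelihood test with all 30 libraries in one fit, Benjamini-Hochberg adjusted p below 0.01, which is what "called", "rose" and "fell" mean below). The median log2 fold change (0 h over H) was 1.15 for genes that rose and -0.79 for genes that fell, and 283 of the 1454 falls and 384 of the 594 rises were at least 2-fold. A fit restricted to the H and 0 h libraries called 4657 higher (26.3% of 17729) and 5030 lower (28.4%), which included 565 of the 594 rises and 1451 of the 1454 falls. The CPM of the H and 0 h libraries did not overlap for 12895 genes (55.5%). The split of the calls depended on scaling. Of all calls 29.0% were rises, against 69.5% (954 higher, 419 lower) with library size alone as the scale and 47.1% (787 higher, 884 lower) with DESeq2 size factors. The Wald test of DESeq2 called 1769 higher and 1691 lower of 18998 tested, so whether falls outnumbered rises depended on the setting. In the fit of all 30 libraries, 8320 of the 23222 genes had an unadjusted p below 0.05. Leaving out any one of the 6 libraries lowered the calls to between 86 (without H replicate 1) and 251 (without 0 h replicate 3) higher, and between 375 (without 0 h replicate 2) and 788 (without H replicate 3) lower.

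The direction of change followed the length of the transcript. Genes that rose had a median exon length of 1110.5 bp and genes that fell 2886 bp, against 1688 bp for all genes tested. Among the 1118 genes shorter than 500 bp the median log2 fold change was 0.55, with 74 rises and 0 falls. The median then declined through every length class, to 0.20 for 1000 bp to under 1500 bp, -0.21 for 2000 bp to under 2500 bp and -0.55 for 3000 bp to under 4000 bp. Among the 369 genes of at least 5000 bp it was -0.83, with 3 rises and 123 falls, so that 33.3% of the longest genes fell. The median level at H was 0.088 CPM under 500 bp and 23.1 CPM at 5000 bp or more. Few reads leave little room to call a fall, so the counts of calls mix length with level. In all, 249 of the 594 rises but 11 of the 1454 falls were in genes under 1000 bp, and 12 rises but 678 falls in genes of at least 3000 bp.

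**Figure D1:**
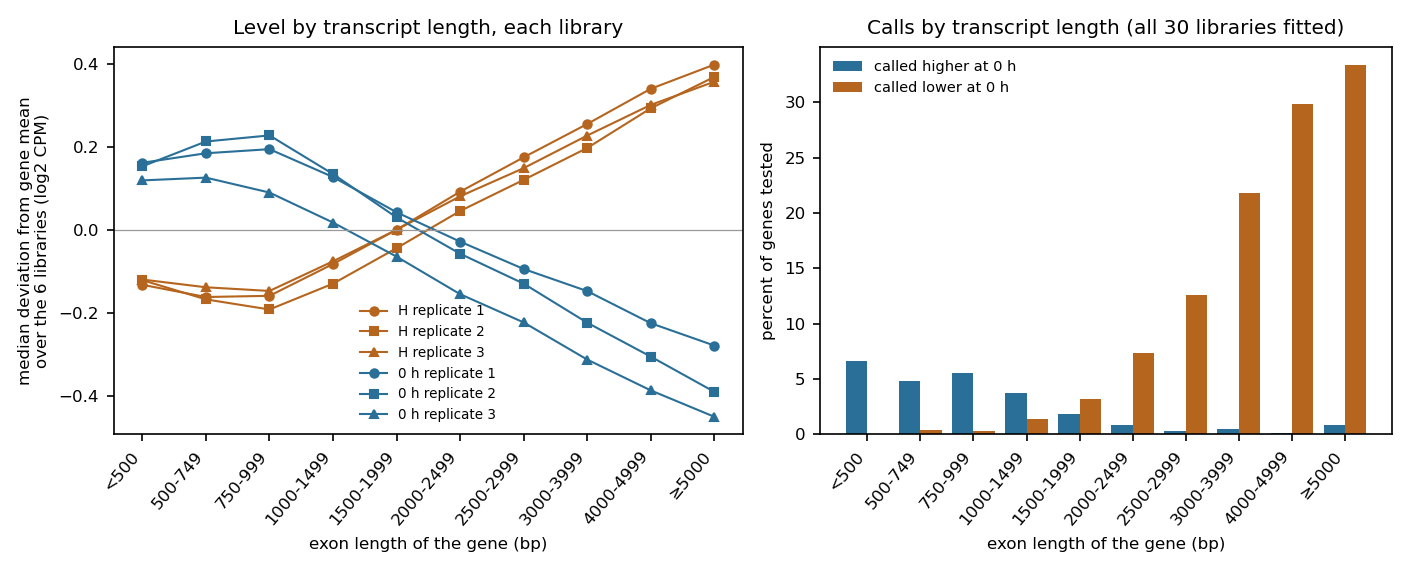
Left, median deviation of a gene from its own mean over the 6 libraries (log2 CPM, pseudocount 0.1) by exon length in bp, one line per library, and right, the percent of genes in each length class called higher or lower at 0 h. The H and 0 h lines cross in the class from 1500 bp to under 2000 bp, and calls pass from 0% lower under 500 bp to 33.3% lower at 5000 bp or more. The median level at H also differs between these classes (0.088 and 23.1 CPM).

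An index of this trend was taken for each library as the median deviation of genes of at least 3000 bp less that of genes under 1000 bp, which a scaling factor cannot move. It was 0.45, 0.40 and 0.40 in the H libraries and -0.37, -0.47 and -0.44 in the 0 h libraries. The 3 libraries of each time point lay close together, and the time points were far apart. The index was 0.42 ± 0.03 (SD, n = 3) at H and -0.43 ± 0.05 (SD, n = 3) at 0 h, a difference of -0.84 (exact two-sided permutation test, p = 0.10, the smallest that 3 against 3 libraries can give). The same index was -0.87 over nuclear protein-coding genes that overlap no other gene, and -0.53, -0.85 and -0.87 within the genes of lowest, middle and highest GC content.

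The trend was steeper among abundant transcripts. Genes were put into 3 equal classes by their mean level over the 6 libraries. In the highest class (above 10.1 CPM), genes under 1000 bp had a median log2 fold change of 0.45 and genes of at least 3000 bp -0.73, and 541 of these 1223 long genes fell. In the lowest class the medians were 0.46 and 0.03, so long genes there showed no net fall. Across all genes tested, the Spearman correlation of the log2 fold change was -0.44 with length, -0.34 with the level at H and -0.27 with GC content, a description over 23222 genes that share the same 6 libraries.

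Length differences between isoforms of one gene did not show the trend. In 699 genes whose 2 most abundant isoforms differed in length by at least 1.25-fold (median 1416 against 984 bp, each with a mean of at least 1 in the deposited TPM-based signal), the log2 ratio of the longer to the shorter isoform was followed in each library. Its median deviation from the gene mean was -0.014, -0.012 and -0.000 at H and -0.014, -0.008 and 0.022 at 0 h. The time points overlapped, and their means differed by 0.01 (exact two-sided permutation test, p = 0.70). The longer isoform was lower at 0 h in 347 of the 699 genes (49.6%). This comparison was added after the trend across genes had been seen, and it covers a smaller span of lengths.

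When the length trend of each library was removed by an offset fitted over all genes, 316 genes were higher (1.36% of those tested) and 380 lower (1.64%). Of the original calls, 284 rises (47.8%) and 329 falls (22.6%) were kept. The offset cannot separate a change that goes with length from a change of a group that happens to be long.

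Ribosomal RNA, which has no long poly(A) tail, was also followed. The nuclear 18S ribosomal RNA gene AT3G41768 was at 1946, 2443 and 2649 CPM in the H libraries and 5583, 5477 and 6531 CPM in the 0 h libraries. Every 0 h library lay above every H library, with a mean 2.50 times as high, but the fit over 30 libraries did not call it (adjusted p = 0.314, against 7.74e-09 with the 6 libraries alone). The time points did not overlap in 55.5% of all genes tested. The mitochondrial genome gene ATMG00020 was 706 ± 120.2 CPM at H and 1474 ± 131 CPM at 0 h (SD, n = 3; adjusted p = 0.250 by edgeR with all 30 libraries). Most of the mitochondrial genome went the other way, with 37 of 45 genes tested at a negative log2 fold change (median -0.48). The labels give polyadenylated RNA selection and a total RNA kit together, and the part that selection or RNA condition had in these values or in the length trend was not tested.

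Transcripts of small nucleolar RNAs (snoRNAs), which guide the chemical modification of ribosomal RNA, were mostly higher at 0 h, although most did not pass the test. Of 210 snoRNA and small nuclear RNA genes tested, 36 rose and 0 fell, 22 had a negative log2 fold change, and the median log2 fold change was 1.17 (0.68 with the length offset, with 28 rises). That was 17.1% against 2.56% of the whole table, and fits without 1 library gave 11 to 25 rises. The snoRNA genes together held 61.0, 62.1 and 65.1 CPM at H and 160.5, 182 and 170.0 CPM at 0 h, 2.72 times as much in the mean. The 2 with the smallest adjusted p are printed from the reference genome (build TAIR10.1, whose nuclear coordinates for these genes equal those of the deposited TAIR10 table), with the ACA near the 3′ end in capitals, which is the hallmark of the H/ACA class that directs pseudouridine formation.
AT2G04955 (chr2:2184672-2184820, minus strand): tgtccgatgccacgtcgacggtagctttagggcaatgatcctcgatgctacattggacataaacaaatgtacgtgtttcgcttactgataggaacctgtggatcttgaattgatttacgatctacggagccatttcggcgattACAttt
AT5G07095 (chr5:19624548-19624687, plus strand): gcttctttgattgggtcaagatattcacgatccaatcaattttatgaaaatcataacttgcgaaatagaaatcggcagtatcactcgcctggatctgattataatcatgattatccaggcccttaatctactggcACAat

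AT2G04955 was at 2.01, 2.51 and 2.37 CPM in the H libraries and 7.35, 8.78 and 9.38 CPM in the 0 h libraries. All 3 libraries at 0 h lay above all 3 at H (log2 fold change of 1.82 with SE 0.25, adjusted p = 7.70e-05), which its place among the largest rises below required. The call held without any one of the 6 libraries. AT5G07095 was at 3.42, 3.18 and 2.99 CPM at H and 11.3, 12.6 and 11.2 CPM at 0 h (log2 fold change of 1.80 with SE 0.29, adjusted p = 0.000242), and its call also held without any one library. Both were chosen by their adjusted p, and the following search was made after their sequences had been seen. An ACA within the last 8 bases was found in 19 of the 35 snoRNA genes that rose and in 42 of the 188 tested (22.3%; 9.57% on the reverse strand). A C box (TGATGA) followed by a D box (CTGA) without overlap, the mark of the class that directs methylation, was found in 9 of the 35 and 98 of the 188 (52.1%; 1.06% on the reverse strand). Genes with the ACA end but no C and D boxes had a median length of 139 bp and a median log2 fold change of 1.60, and those with C and D boxes 85 bp and 1.06, so class and length differ together. Many snoRNAs lie in introns or beside other genes, and with unstranded reads their counts can include those of the neighbour.

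Messenger RNAs for proteins of the cytosolic ribosome were mostly higher. Of 109 such genes tested, 17 rose and 1 fell, and 93 had a positive log2 fold change (median 0.46, 0.20 with the length offset, 7 rises and 2 falls; 81 rises and 7 falls with the 6 libraries alone). The share of rises, 15.6%, stood above the 2.56% of the whole table, although leaving out 1 library brought the number of rises down to between 0 and 5, whichever library it was. The 2 with the smallest adjusted p encode ribosomal protein L41, the smallest protein of the large subunit. Their coding sequences are printed to show how close the copies are, with the 6 of 78 positions at which they differ in capitals, joined across 1 intron, from TAIR10.1.
AT3G56020 (chr3:20790826-20791043, minus strand): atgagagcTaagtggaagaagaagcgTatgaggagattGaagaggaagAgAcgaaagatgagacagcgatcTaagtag
AT1G56045 (chr1:20962686-20963268, plus strand): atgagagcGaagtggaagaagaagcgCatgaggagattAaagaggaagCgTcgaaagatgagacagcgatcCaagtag

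AT3G56020 was at 17.2, 18.5 and 17.3 CPM at H and 52.3, 60.7 and 52.1 CPM at 0 h (log2 fold change of 1.56 with SE 0.32, adjusted p = 0.00175). AT1G56045 was at 18.25, 18.7 and 19.4 CPM at H and 51.1, 53.0 and 43.6 CPM at 0 h (log2 fold change of 1.31 with SE 0.26, adjusted p = 0.00154). In both genes the libraries of the 2 time points did not overlap, as in 55.5% of all genes tested, and the rise was kept with the length offset (1.27 and 1.02). Only the coding sequences were compared, out of 522 and 472 bp of exon. Whether reads are split between the copies was not tested, so the pair is better read together. AT3G56020 lost the call without H replicate 1, H replicate 3 or 0 h replicate 2 (highest adjusted p 0.0121) and AT1G56045 without H replicate 1 (highest adjusted p 0.0111). The one ribosomal protein gene that fell, AT3G58660, annotated to the L1p/L10e family, is longer (1581 bp; 55.4, 57.8 and 49.6 CPM at H, 34.8, 35.8 and 31.9 CPM at 0 h; log2 fold change of -0.74 with SE 0.16, adjusted p = 0.00291), and it lost the call without any one library other than H replicate 3 (highest adjusted p 0.0221).

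Histone and plastid genome genes had positive medians with few calls. Of 45 core histone genes 3 rose and 0 fell (6.67% higher against 2.56%; median 0.39, 0.14 with the length offset and 3 rises), and fits without 1 library gave 0 to 3 rises. Of 97 plastid genome genes 2 rose and 0 fell, 2.06% against 2.56%, and 0 or 1 without 1 library (median 0.56, 0.17 with the length offset). Of 45 mitochondrial genome genes, edgeR and DESeq2 called 0, and the median was -0.48. An unadjusted p below 0.05 was seen in 4 of the 45, against 8320 of 23222 in the whole table. With the 6 libraries alone there were 27 rises and 0 falls of plastid genes, and 5 rises and 11 falls of mitochondrial genes. Among 19 nuclear genes annotated to plastid or mitochondrial ribosomal proteins, edgeR called 0 and DESeq2 2, and 10 had an unadjusted p below 0.05 (14 rises and 1 fall with the 6 libraries alone).

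The 12 largest falls among genes that reached 5 CPM and did not overlap between the time points (log2 fold change -2.81 to -2.29) were in genes of modest level, 5.28 to 34.5 CPM in the mean at H, and of 1057 to 3414 bp. They were 2 genes for leucine-rich repeat (LRR) family proteins, AT1G49490 and AT3G19020, the glyoxal oxidase-related gene AT5G19580, the glycosyl hydrolase genes *GH9A4*, *BGAL11* and AT3G62710, the pectin lyase-like gene AT5G48140, the plant invertase/pectin methylesterase inhibitor superfamily gene AT3G05610, the pollen Ole e 1 family gene AT1G29140, the cation/H+ exchanger gene *CHX23* and the uncharacterized genes AT5G61720 and AT1G58120. AT5G19580 (chromosome 5, 6607371-6609799, TAIR10, minus strand) was at 33.8, 35.2 and 34.6 CPM in the H libraries and 5.20, 5.10 and 5.21 CPM in the 0 h libraries. The 3 libraries of each time point were nearly equal and the time points far apart (log2 fold change of -2.81 with SE 0.28, adjusted p = 2.45e-06; -2.60 with the length offset).

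AT3G05610 was at 19.0, 18.1 and 18.5 CPM at H and 3.56, 3.96 and 3.59 CPM at 0 h (log2 fold change of -2.39 with SE 0.32, adjusted p = 7.70e-05). *BGAL11*, which encodes a beta-galactosidase of the cell wall, was at 22.3, 20.01 and 21.1 CPM at H and 5.49, 4.07 and 4.05 CPM at 0 h (log2 fold change of -2.29 with SE 0.31, adjusted p = 7.70e-05). *CHX23* was at 8.67, 8.77 and 8.98 CPM at H and 1.54, 1.68 and 1.86 CPM at 0 h (log2 fold change of -2.44 with SE 0.34, adjusted p = 0.0001). The choice of these 12 genes required every 0 h library to lie below every H library, so that separation is no result. Of the 12 calls, 11 held without any one library. The exception was AT1G29140 without 0 h replicate 2 (adjusted p = 0.0113). All 12 also fell with the length offset, where the highest adjusted p was 0.000732. The lower levels were still seen after 1 h of imbibition, when AT5G19580 was at 4.04, 3.16 and 5.68 CPM and AT3G05610 at 3.20, 3.28 and 4.93 CPM.

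Most markers of pollen and anther that could be tested fell as well. Of 15 markers, 9 had enough reads to test, and 7 of these fell (77.8% against 6.26% of the whole table). The 7 include AT3G19020, which is also among the 12 largest falls above. The median log2 fold change was -1.70 (-1.92 with the length offset, 7 falls), against -0.01 over all genes. The list was written with earlier results of these data known. The most abundant, *VGD1*, encodes a pectin methylesterase needed for growth of the pollen tube, and was at 56.6, 56.6 and 60.1 CPM at H and 14.2, 15.67 and 13.9 CPM at 0 h (log2 fold change of -2.06 with SE 0.38, adjusted p = 0.000715). Its neighbour *VGDH1*, a close copy with which reads may be shared, was at 38.4, 39.9 and 41.6 CPM at H and 14.0, 14.2 and 13.2 CPM at 0 h (log2 fold change of -1.61 with SE 0.32, adjusted p = 0.00141). The arabinogalactan protein gene *AGP11* was at 11.9, 12.0 and 11.9 CPM at H and 3.56, 4.60 and 3.50 CPM at 0 h (log2 fold change of -1.70 with SE 0.23, adjusted p = 7.70e-05), and it is short (753 bp).

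Not every pollen gene fell. *PPME1*, which also encodes a pectin methylesterase of the pollen tube, was at 9.29, 9.83 and 9.66 CPM at H and 7.84, 9.74 and 8.75 CPM at 0 h, where the ranges overlapped (log2 fold change of -0.20 with SE 0.31, adjusted p = 0.677). *ANX1*, a receptor kinase of the pollen tube, missed the threshold (log2 fold change of -1.04 with SE 0.29, adjusted p = 0.0118). The summed level of the 15 markers was 143 to 149 CPM at H and 47.4 to 51.6 CPM at 0 h. The tapetum markers A9, EXL4 and EXL6 had 0 or 1 read over all 6 libraries. Of 162 genes whose reference note lists expression in pollen structures alone, a set made after these values had been seen, 11 fell and 2 rose (6.79% lower against 6.26% of the whole table; median -0.09), so most genes noted for pollen did not pass the test. Whether pollen or other floral material was mixed with the H seed was not tested.

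**Figure D2:**
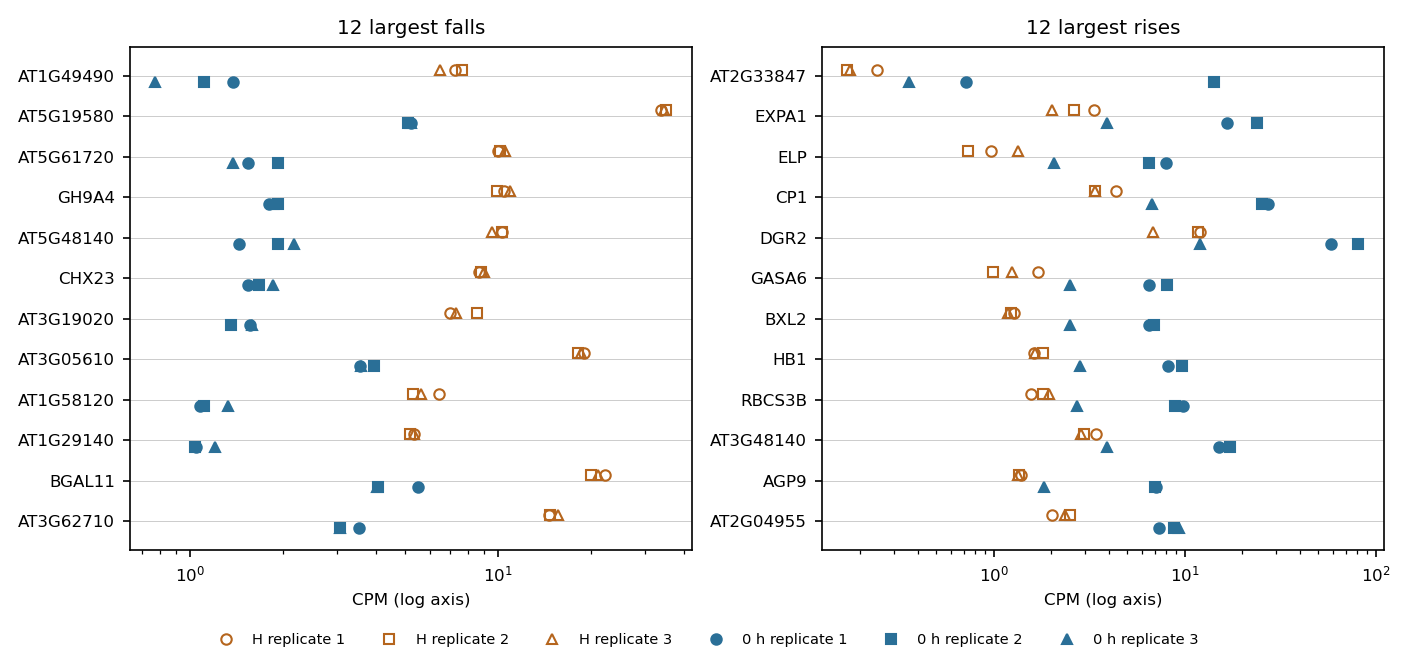
CPM on a log axis in each of the 6 libraries for the 12 largest falls and the 12 largest rises, with H in open and 0 h in filled symbols and 1 shape per replicate. The falls are alike in all 3 libraries at 0 h, whereas 11 of the 12 rises are lowest in 0 h replicate 3 among the 0 h libraries.

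The 12 largest rises were uneven among the 0 h libraries. They were in the cell wall loosening gene *EXPA1*, the extensin-like gene *ELP*, the cysteine proteinase gene *CP1*, the cell wall gene *DGR2*, the gibberellin-regulated *GASA6*, the beta-xylosidase gene *BXL2*, the non-symbiotic haemoglobin gene *HB1*, the Rubisco small subunit gene *RBCS3B*, the arabinogalactan protein gene *AGP9*, the B12D family gene AT3G48140, the uncharacterized gene AT2G33847, and the snoRNA AT2G04955 described above. *DGR2*, *GASA6*, AT3G48140 and AT2G33847 overlap other genes, whose unstranded reads may be counted with theirs. *EXPA1* was at 3.34, 2.64 and 2.03 CPM in the H libraries and 16.6, 24.0 and 3.93 CPM in the 0 h libraries (log2 fold change of 2.37 with SE 0.46, adjusted p = 0.00113). 0 h replicates 1 and 2 stood far above H, and replicate 3 lay just above the highest H library. *CP1* was at 4.37, 3.39 and 3.39 CPM at H and 27.2, 25.5 and 6.75 CPM at 0 h (log2 fold change of 2.31 with SE 0.49, adjusted p = 0.00239), with the same order. *DGR2* was at 12.0, 11.8 and 6.83 CPM at H and 58.1, 81.2 and 12.0 CPM at 0 h (log2 fold change of 2.19 with SE 0.42, adjusted p = 0.00109), where replicate 3 lay next to the highest H library.

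AT2G33847 had the largest fold change (log2 fold change of 4.55 with SE 0.93, adjusted p = 0.00171) but rested on 1 library, with 0.245, 0.172 and 0.178 CPM at H and 0.719, 14.2 and 0.362 CPM at 0 h. Without 0 h replicate 2 its log2 fold change was 1.34 (adjusted p = 0.251). Of the 12 largest rises, only that of AT2G04955 held without any one library, and without 0 h replicate 2 the other 11 lost the call, *EXPA1* with an adjusted p of 0.0151 and *CP1* of 0.0163. Without 0 h replicate 3 all 12 kept it.

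Several of these genes were far higher in later libraries. The mean of *EXPA1* reached 2196 CPM at 12 h SL, that of *CP1* 2742 CPM at 24 h SL and that of *DGR2* 7097 CPM at 1 h SL. To follow such transcripts as a class, 534 genes were taken that reached a mean of at least 100 CPM at a time point in any later sample from 48 h S, yet had under 2% of that mean at 12 h S, a choice made after the rises had been seen that does not use H, 0 h or 1 h S. Their summed level was 1375, 1294 and 1415 CPM in the H libraries and 2477, 2528 and 1452 CPM in the 0 h libraries. 0 h replicate 3 was thus close to H, and replicates 1 and 2 were clearly higher. At 1 h S the sums were 1577, 17552 and 4458 CPM, with replicate 2, the library with the fewest reads of the 30, far above the rest. Of these 534 genes 58 rose at 0 h and 0 fell (10.9% against 2.56%), and 9 of the 12 largest rises belonged to them. Without 0 h replicate 1 the number of rises was 4, without replicate 2 it was 0 and without replicate 3 it was 71. The other 536 genes that rose lay outside the limits of this class, which does not mean that their 0 h libraries were even. Of the 12 largest rises, 11 were lowest in 0 h replicate 3 among the 0 h libraries. Whether transcripts from later libraries were carried over into single 0 h libraries was not tested.

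**Figure D3:**
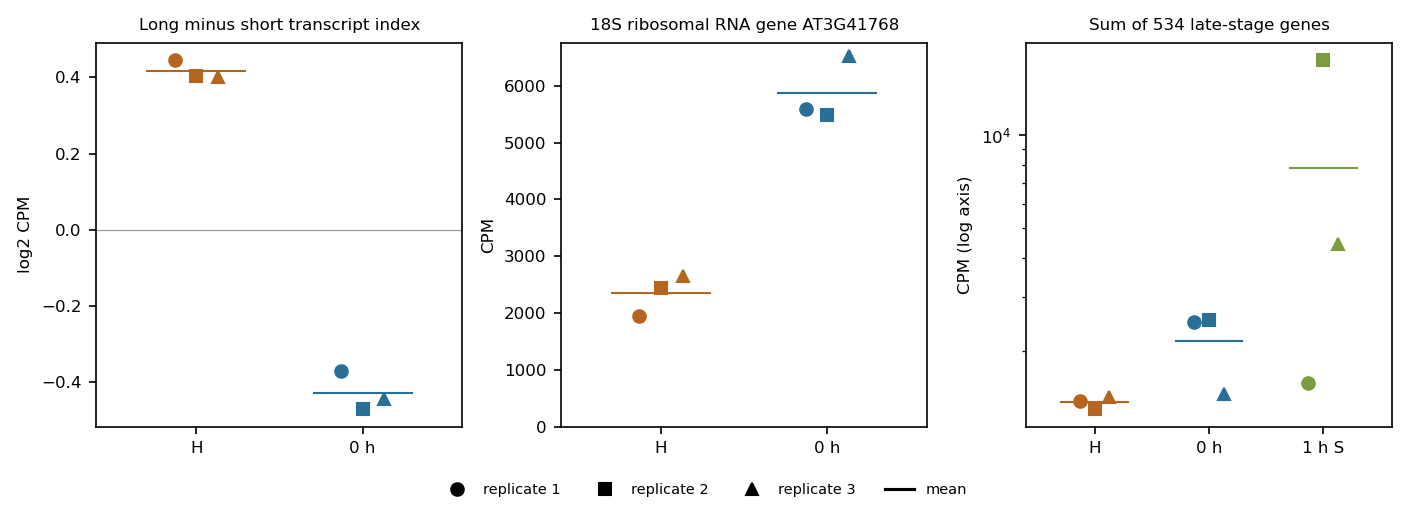
Values per library with the mean as a line: the long minus short transcript index in log2 CPM at H and 0 h, the CPM of the 18S ribosomal RNA gene AT3G41768 at H and 0 h, and the summed CPM of 534 late-stage genes on a log axis at H, 0 h and 1 h S. The first 2 measures separate H from 0 h in every library, and in the last 0 h replicate 3 lies with the H libraries.

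Gibberellin genes gave 2 rises among 20 tested (10.0% against 2.56% of the whole table) and 0 falls. The 6-library fit tested 12 of them and gave 4 rises and 2 falls. It did not test *GA20OX2*, which had 24 reads over the H libraries and 74 over the 0 h libraries, and a mean of 180 CPM at 48 h S. *SLY1*, the F-box protein that directs DELLA repressors to degradation, was at 9.27, 9.20 and 9.48 CPM at H and 17.98, 19.0 and 16.3 CPM at 0 h (log2 fold change of 0.86 with SE 0.21, adjusted p = 0.00535; call lost whichever library was left out, highest adjusted p 0.0254). All 3 libraries at 0 h were high. *GA20OX2*, a late enzyme of gibberellin synthesis, was at 0.0817, 0.158 and 0.143 CPM at H and 1.05, 1.21 and 0.193 CPM at 0 h (log2 fold change of 2.50 with SE 0.57, adjusted p = 0.00363; call lost without any one library other than 0 h replicate 3, highest adjusted p 0.0339), and there replicate 3 lay near H. The 2 antenna and Rubisco small subunit genes that rose among 21 tested (9.52% against 2.56% of the whole table), *RBCS3B* and *RBCS2B*, had the same pattern, with *RBCS2B* at 0.507, 0.430 and 0.802 CPM at H and 4.67, 3.64 and 1.01 CPM at 0 h (log2 fold change of 2.32 with SE 0.57, adjusted p = 0.00638; call lost without any one library other than 0 h replicate 3, highest adjusted p 0.0422). They are near-identical copies of one another. Under the length offset *GA20OX2* kept the call (adjusted p = 0.00808), and *SLY1* (adjusted p = 0.0169), *RBCS2B* (adjusted p = 0.0233) and *RBCS3B* (adjusted p = 0.0189) lost it.

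Storage protein transcripts, the most abundant of the stored mRNAs, took a smaller share of the reads at 0 h. The 10 seed storage protein genes together held 168364 to 172703 CPM at H and 131507 to 131906 CPM at 0 h. None of the 10 was called by edgeR with all 30 libraries or by DESeq2 (3 had an unadjusted p below 0.05, all lower), whereas the 6-library fit called 2 higher and 6 lower. The median log2 fold change was -0.33 with all 30 libraries, -0.23 in the 6-library fit and -0.52 with the length offset. The 12S globulin gene *CRU3* was at 46258, 46752 and 46154 CPM at H and 28498, 29002 and 28137 CPM at 0 h (log2 fold change of -0.77 with SE 0.34, adjusted p = 0.1002; adjusted p = 1.64e-09 with the 6 libraries alone). *CRA1*, of the same class, was at 42253, 43863 and 42608 CPM at H and 30473, 31657 and 30971 CPM at 0 h (log2 fold change of -0.54 with SE 0.30, adjusted p = 0.198; adjusted p = 5.14e-07 with the 6 libraries alone). The 2S albumin gene *SESA5*, a shorter transcript, was at 24766, 25253 and 25313 CPM at H and 28617, 28208 and 29511 CPM at 0 h (log2 fold change of 0.13 with SE 0.39, adjusted p = 0.846; adjusted p = 0.00048 with the 6 libraries alone; log2 fold change -0.16 with the length offset). The replicates of these genes were tight, and the time points did not overlap for any of the 3, as in 55.5% of all genes tested. Reads of storage protein genes with close copies are uncertain.

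Among the other abundant genes, the defensin-like *LCR67* was at 34682, 37137 and 36712 CPM at H and 61028, 61163 and 68610.3 CPM at 0 h (log2 fold change of 0.75 with SE 0.40, adjusted p = 0.185; adjusted p = 1.07e-08 with the 6 libraries alone). The dehydrin gene *RAB18* was at 29094, 32999.9 and 29426 CPM at H and 24098, 24641 and 24461 CPM at 0 h (log2 fold change of -0.39 with SE 0.42, adjusted p = 0.523; adjusted p = 0.000322 with the 6 libraries alone). The endosperm marker *EPR1*, which encodes an extensin-like wall protein, was at 12822, 16334 and 13213 CPM at H and 5061, 4648 and 4908 CPM at 0 h. Its libraries were far apart, yet it missed the threshold (log2 fold change of -1.61 with SE 0.51, adjusted p = 0.0259; adjusted p = 3.38e-10 with the 6 libraries alone). The other endosperm marker tested, *AGL62*, had a mean of 0.710 CPM at H and 0.711 CPM at 0 h, so the list itself gives no common direction.

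Some LEA transcripts fell. Of 33 genes tested 5 fell and 0 rose (15.2% lower against 6.26%), against 12 falls and 16 rises with the 6 libraries alone, and the median was 0.09. *ECP63* (1703 bp) was at 446, 469 and 421 CPM at H and 230.0, 209 and 198 CPM at 0 h (log2 fold change of -1.14 with SE 0.19, adjusted p = 0.000271), which held without any one library. AT5G44310 (1488 bp) was at 1806, 1932 and 1719 CPM at H and 1004, 1008 and 991 CPM at 0 h (log2 fold change of -0.93 with SE 0.19, adjusted p = 0.00183; call lost without H replicate 2, 0 h replicate 1 or 0 h replicate 2, highest adjusted p 0.0138). *EM1* (925 bp) was at 1506, 1563 and 1397 CPM at H and 770.1, 763 and 713 CPM at 0 h (log2 fold change of -1.07 with SE 0.25, adjusted p = 0.00410; call lost without any one library other than H replicate 3, highest adjusted p 0.0223). Its shorter relative *EM6* (*GEA6* in the reference, 720 bp) was at 10869, 11149 and 11088 CPM at H and 14234, 14855 and 15009.8 CPM at 0 h (log2 fold change of 0.34 with SE 0.42, adjusted p = 0.580; adjusted p = 4.69e-07 with the 6 libraries alone). The 2 Em genes thus moved in opposite directions in the 6-library fit. The libraries of the time points were apart in both, as in 55.5% of all genes tested. The length offset left 6 LEA falls and 0 rises (median -0.11). In fits without 1 library, between 1 and 3 LEA genes fell.

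Transcripts of oil body proteins held nearly the same summed share of reads, through members that differed in opposite directions. Of 10 tested none was called by edgeR or DESeq2, and the 6-library fit called 3 higher and 4 lower. An unadjusted p below 0.05 was seen in 0 of them, against 8320 of 23222 in the whole table. They summed to 31238 to 31651 CPM at H and 31991 to 32939 CPM at 0 h. *OLEO1*, an oleosin gene that overlaps another gene, was at 13653, 13924 and 13739 CPM at H and 11154, 10534 and 10758 CPM at 0 h (log2 fold change of -0.42 with SE 0.34, adjusted p = 0.386; adjusted p = 6.61e-06 with the 6 libraries alone). *OLEO2*, a further oleosin gene, was at 5761, 5957 and 5915 CPM at H and 9118, 9228 and 9597 CPM at 0 h (log2 fold change of 0.60 with SE 0.30, adjusted p = 0.147; adjusted p = 3.40e-09 with the 6 libraries alone). In both genes the libraries of the time points did not overlap, as in 55.5% of all genes tested. The median of the list with the length offset was -0.23, against -0.02 without it.

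Of the 27 dormancy and maturation regulators 1 fell and 0 rose (3.70% lower against 6.26%; median -0.23, -0.25 with the length offset). The one that fell was *ABI5*, the bZIP factor that holds back germination under ABA, at 516, 502 and 486 CPM at H and 341, 335 and 317 CPM at 0 h (log2 fold change of -0.67 with SE 0.15, adjusted p = 0.00279; call lost without any one library other than H replicate 3, highest adjusted p 0.0179). *ABI3*, the B3 factor that drives seed maturation, was at 111, 113 and 108 CPM at H and 64.0, 62.3 and 60.8 CPM at 0 h (log2 fold change of -0.90 with SE 0.34, adjusted p = 0.0535; adjusted p = 2.18e-10 with the 6 libraries alone). *DOG1*, the main quantitative regulator of dormancy, was at 37.4, 36.7 and 39.4 CPM at H and 54.0, 55.0 and 51.8 CPM at 0 h (log2 fold change of 0.43 with SE 0.33, adjusted p = 0.360; adjusted p = 1.04e-08 with the 6 libraries alone), and every 0 h library lay above every H library. Such a lack of overlap, in either direction, was seen in 55.5% of all genes tested. With the length offset *ABI5* lost the call (-0.53, adjusted p = 0.0326), 0 of the list fell, *ABI3* was at -0.49 and *DOG1* at 0.45. The 6-library fit called 6 of the list higher and 10 lower. An antisense transcript is known at *DOG1*, and unstranded reads cannot tell the strands apart.

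Among 37 ABA genes 2 rose and 2 fell, 5.41% each way against 2.56% higher and 6.26% lower in the whole table, so the share of falls was below the background. The receptor genes *PYR1* (17.7, 18.05 and 18.3 CPM at H, 35.3, 31.5 and 31.1 CPM at 0 h; log2 fold change of 0.78 with SE 0.17, adjusted p = 0.00295) and *PYL5* (34.2, 31.1 and 35.0 CPM at H, 59.7, 65.0 and 63.7 CPM at 0 h; log2 fold change of 0.84 with SE 0.22, adjusted p = 0.00926) rose. The phosphatase gene *HAI2*, whose product holds ABA signalling in check, fell from 29.4, 30.3 and 29.2 CPM to 16.9, 17.5 and 17.7 CPM (log2 fold change of -0.84 with SE 0.15, adjusted p = 0.000683). *AAO3*, which encodes the last enzyme of ABA synthesis, has 5431 bp of exon and overlaps another gene. It fell from 13.1, 12.9 and 13.1 CPM to 8.66, 8.46 and 8.25 CPM (log2 fold change of -0.70 with SE 0.19, adjusted p = 0.00967; 0.02 with the length offset). In these 4 genes the libraries of the 2 time points did not overlap, as in 55.5% of all genes tested. With the length offset *PYR1* (adjusted p = 0.00794) and *HAI2* (adjusted p = 0.00179) kept the call and *PYL5* lost it (adjusted p = 0.0229). *HAI2* held without any one library, *PYR1* lost the call whichever library was left out (highest adjusted p 0.0178), *PYL5* whichever library was left out (highest adjusted p 0.0395) and *AAO3* whichever library was left out (highest adjusted p 0.0423).

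Several groups of long genes gave falls that were mostly lost with the length offset. Of 31 mRNA decay factors 7 fell and 0 rose (22.6% lower against 6.26%; 4 to 6 falls without 1 library; median -0.72, median length 2950 bp; 26 lower and 4 higher in the 6-library fit), and with the length offset the median was -0.30 and 0 were called. *UPF2* (AT2G39260), a core factor of nonsense-mediated decay, was at 62.6, 61.0 and 60.4 CPM at H and 36.4, 32.5 and 31.3 CPM at 0 h (log2 fold change of -0.95 with SE 0.16, adjusted p = 0.00033; -0.38 with the offset), and held without any one library. Of 286 pentatricopeptide repeat genes, whose products bind organelle RNA, 37 fell and 0 rose (12.9% against 6.26%; median -0.45), and 2 fell with the offset (median -0.18). Leaving out 1 library gave 8 to 18 falls. Of 17 DNA and protein repair genes 3 fell and 0 rose, a larger share of falls than the 6.26% of the whole table (median -0.41, 0.00 with the offset, 0 calls). In fits without 1 library, 1 to 2 of the list fell. Among the 3 was DNA ligase IV (*ATLIG4*, 14.1, 13.7 and 14.2 CPM at H, 9.19, 7.78 and 7.40 CPM at 0 h; log2 fold change of -0.86 with SE 0.14, adjusted p = 0.000249; it overlaps another gene).

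Of 195 LRR protein genes 17 fell and 1 rose (8.72% lower against 6.26%), and 7 LRR genes fell with the length offset, where the group median was 0.04. Fits without 1 library gave 8 to 11 falls of LRR genes. Of 20 heat shock genes 2 fell and 0 rose (10.0% lower against 6.26%), and 0 fell with the length offset. The disaggregase gene *HSP101* was at 745, 702 and 697 CPM at H and 378, 372 and 338 CPM at 0 h (log2 fold change of -1.05 with SE 0.23, adjusted p = 0.00249; -0.60 and adjusted p = 0.0660 with the offset), and the chaperone gene *HSP90.1* at 844, 811 and 804 CPM at H and 488, 485 and 449 CPM at 0 h (log2 fold change of -0.86 with SE 0.21, adjusted p = 0.00660; -0.72 and adjusted p = 0.0285 with the offset). *HSP101* lost the call without any one library other than H replicate 3 (highest adjusted p 0.0157) and *HSP90.1* whichever library was left out (highest adjusted p 0.0296).

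Of 16 antioxidant enzyme genes 2 rose and 1 fell (12.5% higher against 2.56%, 6.25% lower against 6.26%). The copper/zinc superoxide dismutase genes *CSD1* (27.8, 27.6 and 29.1 CPM at H, 58.1, 59.1 and 52.7 CPM at 0 h; log2 fold change of 0.94 with SE 0.22, adjusted p = 0.00411) and *CSD3* (52.7, 46.9 and 52.2 CPM at H, 97.5, 99.5 and 97.1 CPM at 0 h; log2 fold change of 0.89 with SE 0.22, adjusted p = 0.00657) rose, and the glutathione reductase gene *GR* (80.5, 77.3 and 76.6 CPM at H, 54.8, 52.9 and 47.8 CPM at 0 h; log2 fold change of -0.67 with SE 0.16, adjusted p = 0.00629) fell. The libraries of the time points were apart in all 3 genes, as in 55.5% of all genes tested, and *CSD1* and *CSD3* overlap other genes. With the length offset *CSD1* alone kept the call (adjusted p = 0.00580, against 0.0723 for *CSD3* and 0.0390 for *GR*). *CSD1* lost the call whichever library was left out (highest adjusted p 0.0215), *CSD3* whichever library was left out (highest adjusted p 0.0311) and *GR* whichever library was left out (highest adjusted p 0.0286). Of 20 SR splicing factor genes and 15 clock genes none was called by edgeR (medians -0.24 and -0.44). At an unadjusted p below 0.05 there were 6 and 9 genes, DESeq2 called 0 and 1, and the 6 libraries alone gave 13 and 11. Seed coat, floral and silique markers gave 0 calls among 12 tested by edgeR with 30 libraries, where 2 floral markers had an unadjusted p below 0.05, and 0 by DESeq2. The 6-library fit tested 5 seed coat, 4 floral and 1 silique marker and called 0.

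**Figure D4:**
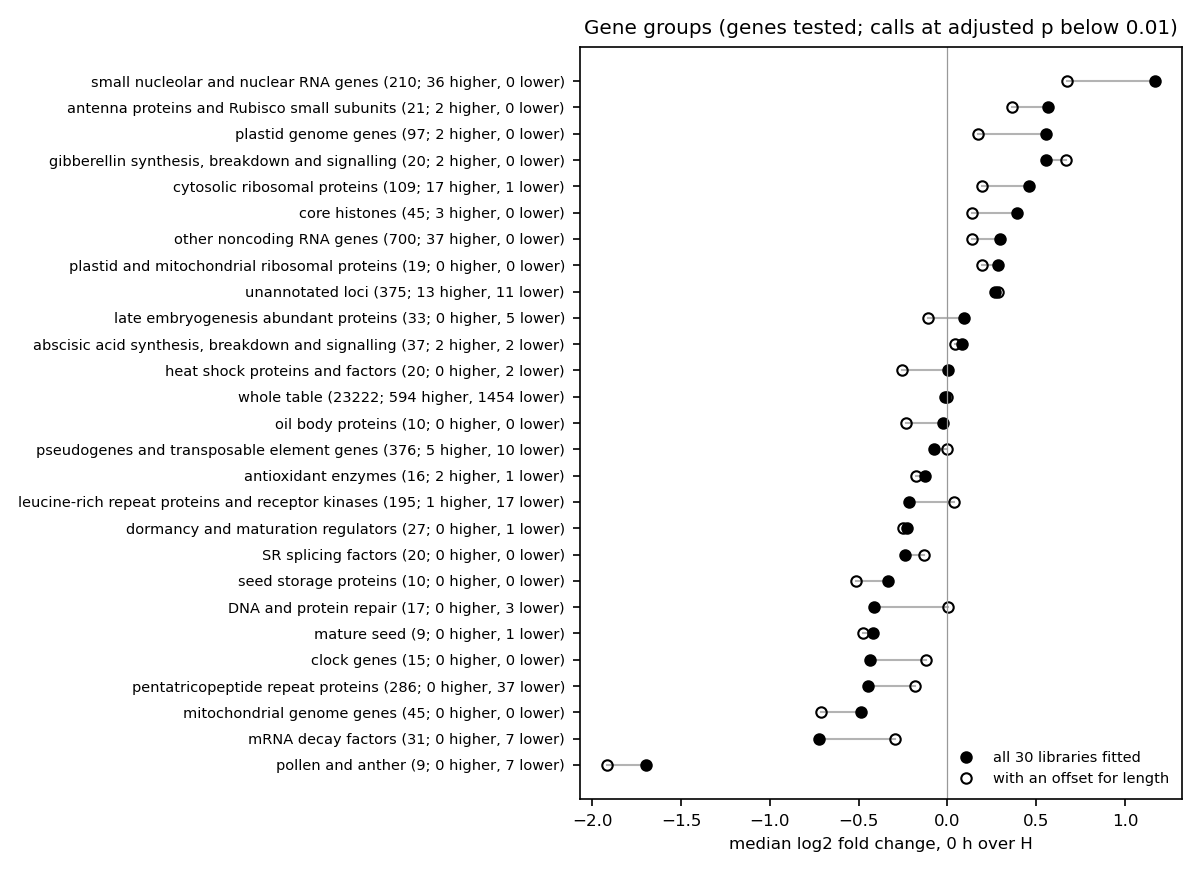
Median log2 fold change (0 h over H) of each gene group with at least 9 genes tested, in the fit of all 30 libraries (filled) and with an offset for length (open), with the number tested and called beside each name. Pollen and anther markers stand lowest at -1.70 and snoRNA and small nuclear RNA genes highest at 1.17, and mRNA decay, repair and pentatricopeptide repeat genes move toward 0 with the offset.

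Among features outside the annotated protein-coding genes, 37 of 700 other noncoding RNA genes rose and 0 fell (5.29% higher against 2.56%; median 0.30). With the length offset 21 of them rose, and fits without 1 library gave 4 to 15 rises. Of 376 pseudogenes and transposable element genes 5 rose and 10 fell, 1.33% and 2.66%, both below the whole table (2 and 4 with the offset, 0 to 1 and 2 without 1 library). Of 375 unannotated loci assembled by the authors 13 rose and 11 fell (3.47% and 2.93%), with 2 to 5 rises and 4 to 9 falls without 1 library. The length offset left 8 rises and 0 falls of unannotated loci. One that fell, XLOC_021235 (chromosome 4, 1516160-1531856), was at 97.4, 94.3 and 91.8 CPM at H and 55.7, 53.4 and 49.1 CPM at 0 h (log2 fold change of -0.92 with SE 0.14, adjusted p = 0.000129), and turned to 0.23 with the offset.

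For reference, the long minus short index over all 30 libraries, taken as the deviation from the mean of all of them, was 0.96 ± 0.03 at H, 0.28 ± 0.05 at 0 h, 0.04 ± 0.30 at 1 h S, -0.38 ± 0.05 at 12 h S and -0.79 ± 0.11 at 48 h S (SD, n = 3 each). It was 1.44 ± 0.0020 in seedlings at 48 h SL. The decline from H to 0 h was thus followed by lower means through the cold, with 1 h S spread more widely between its libraries.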

How the data were processed

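RNA was sequenced from 30 libraries, of which the 3 H and 3 0 h libraries were compared. The labels name a total RNA kit together with poly(A) selection, and the reads are unstranded. The authors trimmed reads (Trim Galore 0.4.2), aligned them with HISAT2 2.0.5 to TAIR10 with the Araport11 annotation, and deposited counts per gene from featureCounts 1.5.1, with exon length as a further column. Unannotated loci came from their own assembly. How reads matching several genes were treated is not given in the sources used here. The authors also deposited isoform values from Salmon 0.7.2 and sleuth 0.28.1, a TPM-based signal whose library sums differ, so it was read as TPM divided by a size factor. Their tables of differentially expressed genes and of isoform p-values were not used.

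Counts were fitted with edgeR 4.0.16 (quasi-likelihood, TMM scaling, filterByExpr with a minimum count of 10, all 30 libraries, contrast 0 h against H) in R 4.3.3, and p-values were adjusted over all 23222 genes tested (Benjamini-Hochberg). Levels are CPM over the whole library without TMM. The length offset was a loess curve (span 0.5) on log2 length, fitted per library. It was fitted to each gene's TMM-scaled log2 CPM less its mean over all 30 libraries. The length index used log2 CPM with a pseudocount of 0.1. Exact permutation tests were run in scipy 1.17.1. Scripts were tested on simulated counts. The 37336 annotated genes were matched to RefSeq (TAIR10.1) by locus tag, 37051 of them successfully.

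Genes named in the text were the 12 largest rises and 12 largest falls (adjusted p below 0.01 in the fits of 30 and of 6 libraries, no overlap in CPM, at least 5 CPM), the 5 most abundant genes, up to 2 called each way from each list by adjusted p (or else its most abundant member), and DOG1, ABI3, ABI5, CRA1, EM1 and EM6. Beyond it, *VGD1*, *VGDH1*, *PPME1*, *ANX1*, *OLEO2*, *AGL62* and the ribosomal RNA genes were named after their values were seen. The members and gene lists were chosen with earlier results of these data known. Other scalings, filters, tools, thresholds, a replicate block, the length offset and fits without 1 library were tried as alternatives.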

Additional observations from a re-analysis of the deposited data

How the results depend on the processing

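The number of calls depended strongly on processing. The 6-library fit called 4657 genes higher and 5030 lower, and the fit with library size alone as the scale called 954 and 419. DESeq2 size factors in edgeR gave 787 higher and 884 lower, the DESeq2 1.42.0 Wald test 1769 and 1691, a filter at a mean of 10 CPM 1068 and 703, and the length offset 316 and 380. Isoform values summed per gene (limma 3.58.1) gave 845 and 863. An adjusted p below 0.05 gave 1914 and 3250, and a further limit of 2-fold 384 and 283. Fits without 1 library gave 86 to 251 higher and 375 to 788 lower. The cause was not tested, except that a fit without 1 library has fewer samples and a stricter filter fewer genes. Across genes, same-numbered H and 0 h libraries did not deviate together (r -0.02 to 0.02), which does not exclude a shared effect in single genes. The oil body gene HSD1 was at 22.7, 22.7 and 239.5 CPM at H and 24.0, 24.9 and 254.9 CPM at 0 h. A replicate block gave 564 higher and 1330 lower with 30 libraries, 4709 and 5038 with 6 libraries, and 315 and 351 with the length offset, and the mean paired difference of the length index was -0.84. The length index kept its sign throughout. It was -0.97 for genes of at least 4000 bp against under 750 bp, -0.74 for the top against the bottom quintile by length, -1.16 for genes with a mean of at least 10 CPM, -0.58 for those under it, -0.94 from isoform values, -0.53 in the lowest of 3 classes by GC (chosen after seeing the data), and -0.87 to -0.82 without 1 library, where p cannot go below 0.2. Among the 83 named genes, the length offset reversed XLOC_021235 (log2 fold change 0.23), AAO3 (AT2G27150, 0.017), CESA5 (AT5G09870, 0.35) and SESA5 (AT5G54740, -0.16). RS2Z33 (AT2G37340), not called in any fit, was at 0.018 in the 6-library fit, 0.0215 with DESeq2 size factors and 0.0215 with the DESeq2 Wald test, against -0.08 with all 30 libraries. The length offset ended the call of 19 other named genes and leaving out 0 h replicate 2 that of 36. With 3 libraries per time point and calls that changed whenever 1 was left out, single calls near the threshold are weak, and genes at a few CPM or less rest on the fewest reads.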
